A study of Mus musculus with 46 samples.

Results

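The collagen genes of the mouse were followed through an RNA-seq series on loss of Arid1a, which belongs to the SWI/SNF chromatin remodellers and contacts DNA. Members were all genes whose symbol is Col, a number, the letter a and a number, with nothing more, and 44 of the 24537 genes in the tables fit that rule. They were grouped as 8 fibrillar genes (Col1a1, Col1a2, Col3a1, Col5a1, Col5a2, Col5a3, Col24a1, Col27a1), 8 basement membrane genes (Col4a1 to Col4a6, Col15a1, Col18a1), 7 cartilage genes (Col2a1, Col9a1 to Col9a3, Col10a1, Col11a1, Col11a2) and 21 genes of other types. The rule uses symbols and no measured value.

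Collagens are matrix proteins in which 3 chains wind into a helix. Fibrillar types bundle into the cables that carry tension in skin, tendon and tumor stroma and are made mainly by fibroblasts. Type IV forms the sheet-like net of basement membranes around vessels and epithelia. Types II, IX and XI build the thin fibrils of cartilage, and type X marks its hypertrophic zone. Other types bridge fibrils, anchor the epidermis or sit in cell membranes.

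The data came from B16F10, a mouse melanoma line, from MC38, a mouse colon cancer line, and from mouse embryonic fibroblasts (MEFs). All 21 groups used held 2 libraries. B16F10 carrying a guide RNA against Arid1a (sgArid1a) was set against B16F10 with a scrambled guide (sgScr, sgScramble) in tumors taken 15 days after subcutaneous injection, in untreated cultures, in cultures given the solvent DMSO for 72 h, and in cultures given PBS. Double knockout cultures (sgArid1a/sgCgas and sgArid1a/sgSting, whose line names in the labels are B16F11 to B16F14), sgArid1a cultures given anti-IFNAR for 72 h, which blocks the receptor of type I interferons, and sgArid1a cultures with the JAK inhibitor ruxolitinib (72 h) were each set against sgArid1a cultures. Cultures of sgScramble B16F10 received BD98, alone or with anti-IFNAR, or DMSO, for 72 h. Murine interferon gamma (IFNγ) was given for 24 h to sgArid1a and sgScr B16F10, against PBS. MC38 with sgArid1a was set against MC38 with sgScr, and Arid1a -/- MEFs (tamoxifen) against WT MEFs (ethanol), both derived from Arid1a fl/fl MEFs and taken 5 days after the agent. The labels do not say whether the libraries of a group came from separate cultures or animals, so p-values measure only the spread between these libraries, which may be technical.

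Libraries held between 8.68 M and 38.8 M reads. In 7 tables the values are normalised log2 expression as deposited, in which low values are drawn together so that changes can be understated, above all those of low genes, and in the BD98 table they are read counts. A gene was tested where its mean was at least 4 on the log2 scale, or where edgeR's count filter kept it, and was called at a Benjamini-Hochberg adjusted p under 0.05 over all genes tested. Arid1a mRNA was lower in sgArid1a than in sgScr tumors (11.24 and 11.41 against 11.71 and 11.57), in Arid1a -/- MEFs (10.12 and 10.32 against 10.52 and 10.79 in WT) and in MC38 (10.59 and 10.53 against 10.69 and 10.71), and all 3 differences were called. It did not follow the guide labels in the IFNγ experiment (12.25 and 12.40 in sgArid1a with PBS against 12.42 and 12.40 in sgScr with PBS). Libraries labelled as double knockout had more Arid1a mRNA than sgArid1a libraries (11.03 and 10.74 for Cgas, 10.71 and 10.83 for Sting, against 10.43 and 10.39), and Mb21d1, which encodes Cgas, was not lower in the Cgas ones (8.03 and 7.98 against 8.06 and 7.96). Tmem173, which encodes Sting, was lower in the Sting ones (9.04 and 8.87 against 9.47 and 9.51). Their groups are therefore given as labelled. Of 7 colon epithelial markers, Cdx2 and Epcam had no reads in MC38, and the levels of the rest are not given here. Of 7 melanoma markers none was at 0 in the B16F10 cultures.

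Col11a2 had the largest collagen change with IFNγ and in untreated cultures, and Col1a2 the largest fall with BD98, so the bases before their start sites are shown. Both are RefSeq promoters of build GRCm38.p6, 250 bases on the plus strand, chr17:34038888-34039137 for Col11a2 and chr6:4505368-4505617 for Col1a2. Capitals mark the TATA box TATAAA and the GC box GGGCGG, searched on both strands together with the interferon motifs GAS (TTCNNNGAA) and the core of ISRE.
Col11a2: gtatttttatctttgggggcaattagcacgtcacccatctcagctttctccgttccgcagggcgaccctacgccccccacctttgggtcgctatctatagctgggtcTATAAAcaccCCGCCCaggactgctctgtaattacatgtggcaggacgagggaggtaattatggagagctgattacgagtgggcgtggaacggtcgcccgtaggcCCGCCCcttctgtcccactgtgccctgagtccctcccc
Col1a2: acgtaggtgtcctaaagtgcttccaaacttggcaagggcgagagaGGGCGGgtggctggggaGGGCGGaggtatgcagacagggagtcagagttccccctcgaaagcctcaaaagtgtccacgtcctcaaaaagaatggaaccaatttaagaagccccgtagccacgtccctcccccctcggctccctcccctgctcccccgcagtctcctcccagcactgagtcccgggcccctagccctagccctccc
Neither window held GAS or ISRE letters, and Col1a2 held no TATAAA. Over all 32851 RefSeq promoters of that length, 7.02% held GAS, 2.98% ISRE, 12.4% TATAAA and 32.7% GGGCGG. Of 38 promoter entries for the 35 collagen genes that matched, 2 held GAS, none held ISRE, 5 held TATAAA and 22 (57.9%) held GGGCGG. A match is a description of letters and not of a bound site.

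The chains that led differed between tumor and culture. Normalised log2 expression per kb of exon is used here to set genes side by side within a table, and tables were normalised separately. In sgArid1a tumors the highest per-kb levels were those of Col3a1 (12.3 ± 0.0495, SD, n = 2), Col1a2 (11.62 ± 0.0212), Col1a1 (11.24 ± 0.099) and Col4a1 (11.12), and the same 4 led in sgScr tumors. In untreated sgArid1a cultures Col4a1 (6.776 ± 0.00919), Col4a5 (6.11 ± 0.0276), Col5a1 (5.774 ± 0.0269) and Col5a3 (5.74 ± 0.058) led, and Col5a1 and Col5a3 did not differ beyond their spread. The B16F10 cultures held the 2 chains of type I very unequally, with Col1a2 at 4.763 ± 0.113 and Col1a1 at 0.3788 ± 0.0345 per kb in sgArid1a cultures.

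Several stromal collagens were close to absent from cultured B16F10 in the log2 tables, and the cartilage chain Col11a1 was low. Across the 4 log2 tables of B16F10 cultures, Col3a1 lay between -1.01 and 1.7, Col5a2 between -1.97 and -0.681, Col6a1 between -1.49 and 0.575, Col6a2 between -2.09 and 0, Col6a3 between -1.97 and 0.684 and Col11a1 between 0.592 and 3.49, all below the filter, where 0 in 1 table means no reads. Col1a1 lay between 2.84 and 5.15, and passed the filter in the IFNγ experiment only among those 4. In tumors all of these passed it, and in the BD98 experiment Col11a1 passed the count filter with 6 to 126 counts. In MEFs Col1a2 (12.68 ± 0.0636 in Arid1a -/-, 12.76 ± 0.0636 in WT), Col1a1 and Col5a2 led per kb. In MC38 Col4a1 (9.168 ± 0.0332 in sgArid1a, 9.307 ± 0.0453 in sgScr), Col6a1 and Col5a1 led. Of the 44 genes, 9 passed the filter in all 15 comparisons and 8 passed it in none (Col4a3, Col6a5, Col6a6, Col17a1, Col19a1, Col22a1, Col25a1, Col26a1).

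**Figure D1:**
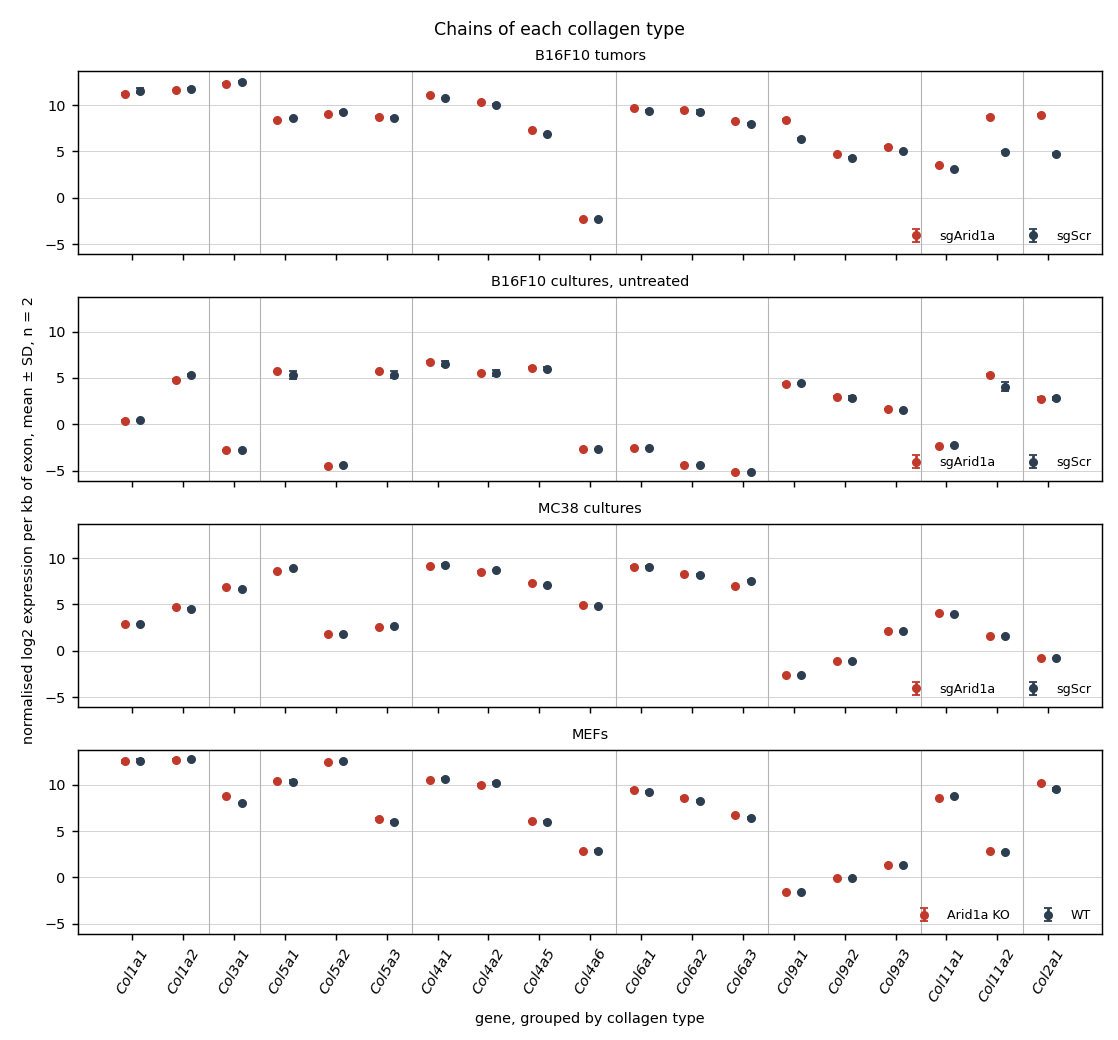
Normalised log2 expression per kb of exon (vertical axis, mean ± SD, n = 2) for the chains of each collagen type (horizontal axis), one panel per experiment, with colours for the groups. Type I and III chains lead in tumors, with Col3a1 at 12.3 in sgArid1a tumors, while in untreated sgArid1a B16F10 cultures Col1a1 lies at 0.3788, far below Col1a2 at 4.763.

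Tumors with sgArid1a held more cartilage collagen mRNA than sgScr tumors, and slightly less of the main fibrillar chains. Of the 35 collagen genes tested, limma called 21 higher, where 26.0% of all genes tested were called higher, and 5 lower, where 28.1% were. The median log2 fold change was 0.265 over the collagens and -0.0191 over all 13895 genes tested. All 7 cartilage genes were higher (median 0.577). Of 8 fibrillar genes none was higher and 4 were lower (median -0.156). Of 6 basement membrane genes 5 were higher and 1 lower, and of 14 genes of other types 9 were higher.

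Col2a1, the chain of type II and the main collagen of cartilage (chr15:97975602-98004724 in build mm10), was at 11.20 and 11.31 on the log2 scale in sgArid1a tumors, against 6.89 and 7.06 in sgScr tumors. Col11a2, a chain of type XI that sets the width of cartilage fibrils (chr17:34039138-34066684), was at 11.40 and 11.46 in sgArid1a tumors, against 7.69 and 7.69 in sgScr tumors. Col9a1, a chain of type IX on the fibril surface (chr1:24195203-24252738), was at 10.13 and 9.99 in sgArid1a tumors, against 7.89 and 8.01 in sgScr tumors. All sgArid1a libraries stood far above all sgScr libraries for these 3 genes. Their log2 fold changes were 4.28 (SE 0.0805), 3.74 (SE 0.0677) and 2.11 (SE 0.0792), with limma adjusted p of 4.6e-12, 3.8e-12 and 1.1e-09, and Col2a1 and Col11a2 ranked 2 and 4 of all genes by size of change. In the authors' deposited table the log2 fold changes were 5.62 for Col2a1 and 4.54 for Col11a2. The other cartilage chains moved less. Col10a1 was at 6.15 and 6.28 in sgArid1a tumors against 5.63 and 5.65 in sgScr tumors (0.58, SE 0.0672), and Col9a3, Col11a1 and Col9a2 changed by 0.46, 0.42 and 0.41. Col11a1, the partner of Col11a2 in type XI, thus stayed at 6.47 and 6.37 in sgArid1a tumors, against 5.99 and 6.01 in sgScr tumors. Without reads sorted by cell, fewer cells of a type and less RNA per cell cannot be told apart in bulk tumors.

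Other cartilage genes were divided. Of a list of 17 cartilage matrix and chondrocyte genes 8 were tested, 4 of them higher and 2 lower. Hapln1, which links aggrecan to hyaluronan, averaged 12.42 in sgArid1a tumors and 9.86 in sgScr tumors (2.55, SE 0.0685). Cilp, a matrix protein of the cartilage intermediate layer, changed by 1.92, and Trpv4, a calcium channel of chondrocytes, by 0.74. Sox9, the transcription factor that drives Col2a1 in chondrocytes, averaged 6.16 in sgArid1a tumors and 7.43 in sgScr tumors (-1.26, SE 0.0763). Acan, Comp, Matn1, Chad, Cnmd and Epyc stayed below the filter in tumors, and Ucma had no reads. The summed level of the chondrocyte markers was 12.43 to 12.47 in sgArid1a tumors and 10.15 to 10.26 in sgScr tumors, with 1 of 3 tested markers higher and 2 lower. Most of that sum is Hapln1 alone, and its part in the result was not tested. Of 8 bone genes 2 were tested, and both Alpl (0.20) and Runx2 (0.18) were called higher.

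**Figure D2:**
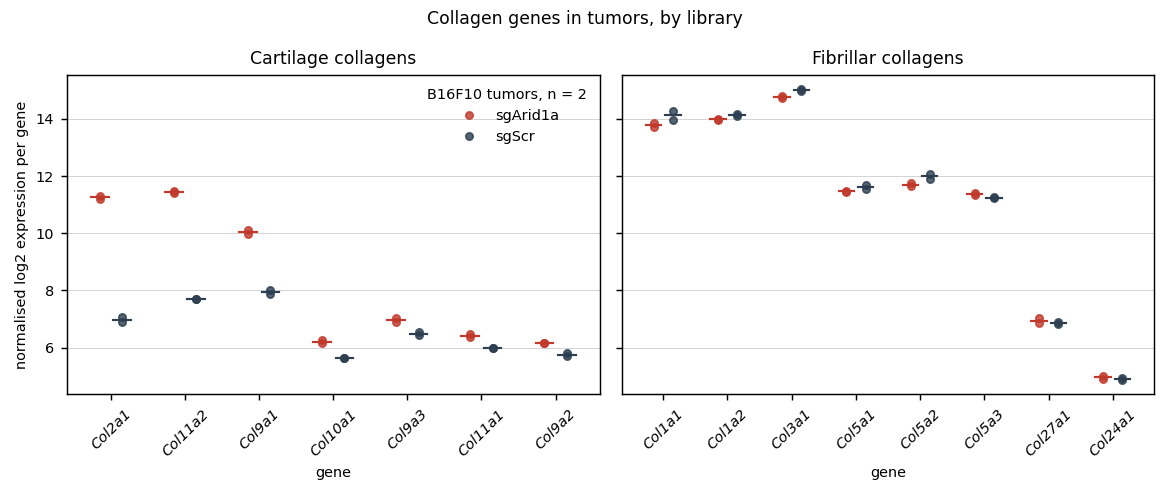
Normalised log2 expression (vertical axis) of cartilage and fibrillar collagen genes (horizontal axis) in B16F10 tumors, one point per library, sgArid1a and sgScr in different colours (n = 2 each). Col2a1, Col11a2 and Col9a1 stand far apart between the groups, with Col2a1 at 11.20 and 11.31 against 6.89 and 7.06, whereas Col1a1, Col1a2, Col3a1 and Col5a2 lie slightly lower in sgArid1a tumors.

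The fibrillar chains of stroma were abundant in both kinds of tumor. Col1a1 was at 13.73 and 13.86 in sgArid1a tumors, against 14.29 and 13.94 in sgScr tumors (-0.32, SE 0.0943, adjusted p 0.012). Col3a1, which mixes with type I in skin and vessels, was at 14.80 and 14.72 against 14.96 and 15.04 (-0.24, adjusted p 0.0049). The groups did not overlap for either gene, although for Col1a1 the second sgScr library lay close to both sgArid1a libraries. Col1a2 was at 14.002 and 13.973 in sgArid1a tumors, against 14.182 and 14.105 in sgScr tumors (-0.16, adjusted p 0.038), and Col5a2, a chain of the type V collagen inside type I fibrils, at 11.74 and 11.66 against 11.89 and 12.08 (-0.28, adjusted p 0.0049). Each of these 4 calls depended on single libraries. Col1a1 lost its call without sgScr replicate 1 (-0.15, adjusted p 0.12), Col3a1 without sgArid1a replicate 2 (-0.21, adjusted p 0.1) and Col5a2 without sgScr replicate 2 (-0.19, adjusted p 0.05). Col1a2 lost its call without sgScr replicate 1 (-0.12), sgArid1a replicate 1 (-0.17) or sgArid1a replicate 2 (-0.14). Col5a1 at 11.45 and 11.47 in sgArid1a tumors, against 11.68 and 11.56 in sgScr tumors, was not called (adjusted p 0.052), but was without sgScr replicate 2 (-0.22, adjusted p 0.023). In the authors' deposited table Col1a2 had an adjusted p of 0.043 and Col1a1 one of 0.15.

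Of the 6 basement membrane genes tested in tumors, all but Col4a4 were modestly higher, and Col4a3 and Col4a6 lay below the filter. Col4a1 was at 13.83 and 13.83 in sgArid1a tumors, against 13.53 and 13.50 in sgScr tumors (0.32, SE 0.0555, adjusted p 0.00041). Col4a2, its partner in the common type IV trimer, was at 12.957 and 12.997 against 12.734 and 12.689 (0.27, SE 0.0566). The libraries of the 2 groups did not overlap for either. Col4a5 changed by 0.46, Col15a1 by 0.33 and Col18a1, the source of endostatin, by 0.32. Col4a4, a chain of the type IV net of the kidney glomerulus, went the other way, at 8.23 and 8.34 in sgArid1a tumors, against 8.94 and 8.97 in sgScr tumors (-0.67, SE 0.0738). Among the other types, Col20a1, at 7.87 and 7.95 in sgArid1a tumors against 7.10 and 7.03 in sgScr tumors, changed most (0.84), followed by Col8a1, a network collagen of vessels, at 9.93 and 9.82 against 9.26 and 9.37 (0.56). The type VI microfibril chains were also higher, Col6a3 by 0.34, Col6a1 by 0.27 and Col6a2 by 0.27, although Col6a2 was not called without sgScr replicate 2 (0.13, adjusted p 0.2). Col7a1, the anchoring fibril of the skin, was higher by 0.31, Col14a1 by 0.28, Col28a1 by 0.22 and Col8a2 by 0.18.

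Of 30 genes of collagen synthesis and crosslinking 29 were tested in tumors, 11 of them higher and 5 lower. Mia3, which loads collagen into export vesicles, was higher by 1.06, P3h1, a prolyl hydroxylase, by 0.77, and P4hb, a subunit of the prolyl hydroxylase that stabilises the helix, by 0.69. Lox, which crosslinks fibrils, was lower by -0.82. Of 19 tested genes of collagen breakdown and receptors 8 were higher and 6 lower, among them the receptors Lair1 (1.18) and Ddr2 (0.88) and the metalloproteinase inhibitors Timp1 (-0.80) and Timp2 (-0.65).

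Markers of cells around the tumor also moved. All 10 skeletal muscle markers were higher in sgArid1a tumors (1.93 to 3.16), with a summed log2 level of 13.59 to 13.61 in sgArid1a tumors and 10.79 to 10.84 in sgScr tumors. All 6 macrophage markers were higher (0.73 to 1.26; summed 14.01 to 14.06 against 12.86 to 12.96), as were all 8 endothelial markers (0.24 to 0.52; summed 12.73 to 12.75 against 12.28 to 12.35). The 10 fibroblast markers were divided, with 7 higher and 1 lower (Fbln1, -1.10), and their summed levels overlapped (14.04 to 14.12 in sgArid1a tumors, 14.01 to 14.10 in sgScr tumors). Adipocyte markers were higher in 4 of 4 tested (summed 11.09 to 11.19 against 10.44 to 10.68), Schwann cell markers in 3 of 4 (13.78 to 13.87 against 13.06 to 13.13) and mural cell markers in 2 of 7 (12.91 to 12.94 against 12.80 to 12.86). Melanoma markers were higher in 1 and lower in 3 of 7 (summed 19.22 to 19.24 in sgArid1a tumors, 19.65 to 19.68 in sgScr tumors). Krt1 and Krt14 were at 0 in all 4 tumors and no keratinocyte marker passed the filter. The part of these markers in the collagen results was not tested.

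In untreated B16F10 cultures most tested collagens were not called between sgArid1a and sgScr cells, and Col11a2 and Col1a2 were the exceptions. Limma called 1 of 17 tested collagens higher, where 5.84% of all genes tested were called higher, and 1 lower, where 5.98% were. Col11a2 was at 8.11 and 8.01 in sgArid1a cultures, against 6.43 and 7.08 in sgScr cultures, with every sgArid1a library above every sgScr one. It was higher by 1.31 (SE 0.204, adjusted p 0.0012) and ranked 2 from the top. Its call held in all alternatives, which did not include another normalisation of these libraries. Normalised with the anti-IFNAR cultures, the same libraries had Col11a2 means of 8.142 in sgArid1a and 7.36 in sgScr cultures. The sgScr library at 6.43 was replicate 1, which held 8.68 M reads, against 22.8 M in replicate 2. Col1a2 was at 7.05 and 7.21 in sgArid1a cultures, against 7.76 and 7.58 in sgScr cultures, a fall of -0.54 (SE 0.132, adjusted p 0.019). That call was lost without sgScr replicate 1 (-0.45), sgArid1a replicate 1 (-0.46) or sgArid1a replicate 2 (-0.62). Normalised with the anti-IFNAR cultures, the Col1a2 means were 7.242 in sgArid1a and 7.571 in sgScr cultures. Col2a1, so much higher in tumors, was at 4.99 and 5.21 in sgArid1a cultures, against 5.05 and 5.24 in sgScr cultures, and the groups overlapped (-0.05, adjusted p 0.84). Col4a1 (0.23), Col4a2 (-0.02) and Col5a1 (0.45) were not called, but without sgScr replicate 2 Col5a1 (0.76, adjusted p 0.00069) and Col4a1 (0.43, adjusted p 0.012) were.

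Of 21 tested synthesis genes 1 was higher and 4 lower in untreated sgArid1a cultures, with Loxl2, a crosslinking enzyme, at -1.12 and Plod2, a lysyl hydroxylase, at -0.45. Of 10 tested breakdown and receptor genes 1 was higher and 3 lower, including Timp3 (-0.91) and Ddr2 (-0.82). Of 10 fibroblast markers 4 were tested, 3 of them lower. In their summed level the sgArid1a cultures reached 10.76 to 10.83 and the sgScr cultures 11.78 to 11.81, while Dcn, Dpt and Thy1 were at 0 in both. Their part in the collagen results was not tested.

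In the DMSO cultures Col1a2 was again called lower, and Col11a2 was not called. Limma called 1 of 19 tested collagens higher (3.50% of all genes tested) and 1 lower (4.38%). Col1a2 was at 7.32 and 7.29 in sgArid1a DMSO cultures, against 7.78 and 7.52 in sgScr DMSO cultures (-0.35, SE 0.0867, adjusted p 0.03). Col10a1 was at 4.56 and 4.57 against 4.32 and 4.42 (0.19, adjusted p 0.027). Neither call held without sgScr replicate 1 (-0.22 for Col1a2, 0.14 for Col10a1), sgArid1a replicate 1 (-0.36 and 0.20) or sgArid1a replicate 2 (-0.33 and 0.18). Col11a2 was at 7.66 and 8.05 in sgArid1a DMSO cultures, against 7.62 and 7.31 in sgScr DMSO cultures. It missed the threshold (0.39, SE 0.126, adjusted p 0.079), and was called without sgScr replicate 1 (0.54, adjusted p 0.0081). In the authors' deposited table it was higher by 0.85 (adjusted p 0.0057). In the PBS cultures, where Arid1a mRNA did not follow the guides, Col11a2 was at 8.74 and 8.78 in libraries labelled sgArid1a, against 8.73 and 8.72 in those labelled sgScr (0.03, adjusted p 0.87). No collagen of 22 tested was higher there (2.37% of all genes) and 1 was lower (0.348%). That gene was Col9a1, at 6.88 and 6.96 in libraries labelled sgArid1a against 7.15 and 7.07 in those labelled sgScr (-0.19, adjusted p 0.042). It lost its call when any 1 of the 4 libraries was left out (-0.14 to -0.23).

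**Figure D3:**
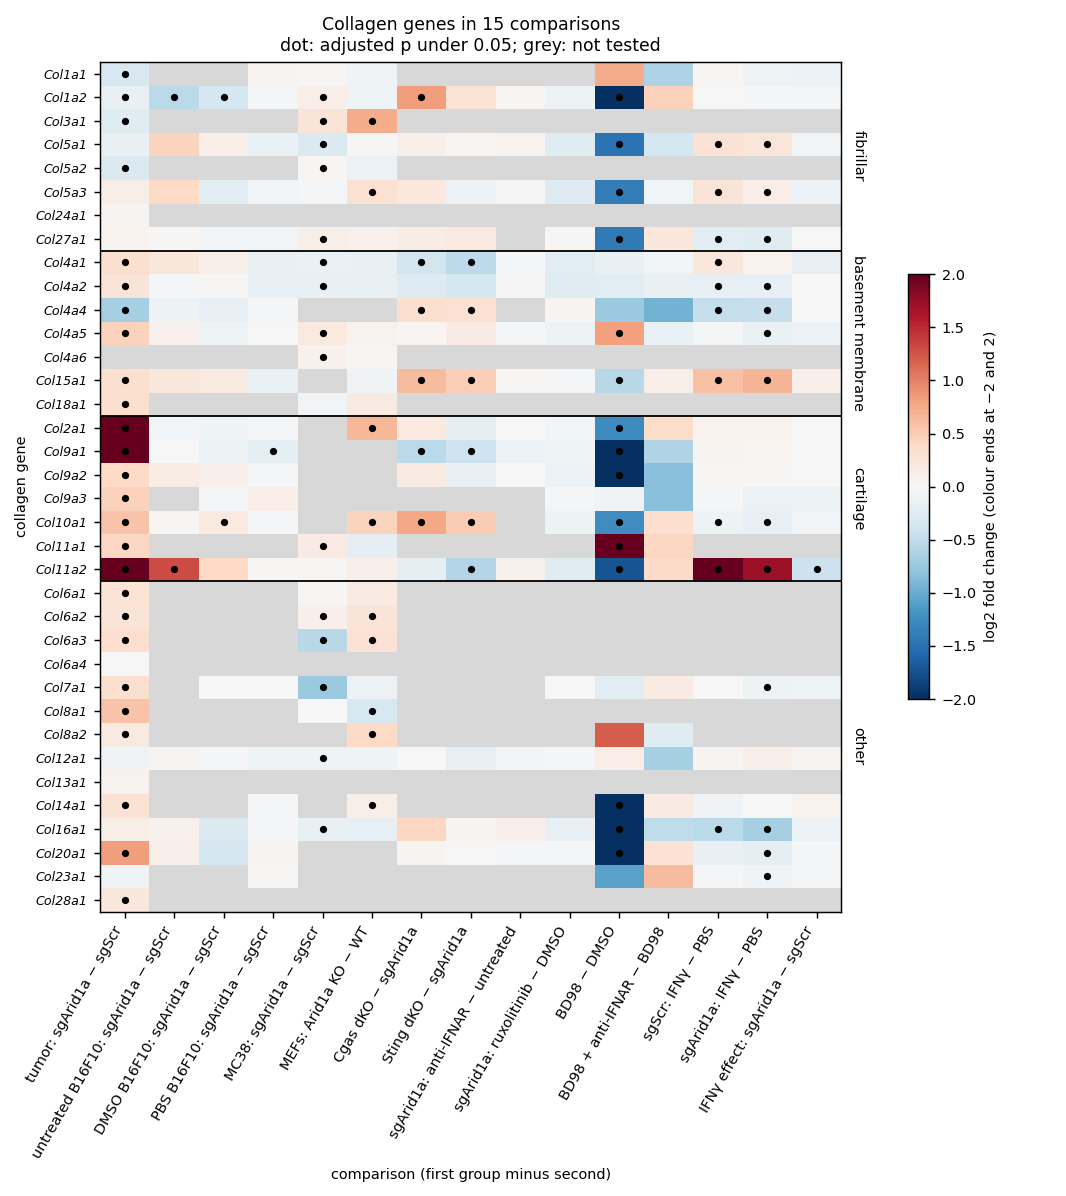
Log2 fold change (colour, ending at -2 and 2) of the 36 collagen genes tested at least once (rows) in the 15 comparisons (columns, first group minus second), with dots at adjusted p under 0.05 and grey where a gene was not tested. Calls are most frequent among tested genes in the tumor, MC38 and BD98 columns. Col11a2 is marked in tumors, untreated cultures, Sting double knockouts, BD98, both IFNγ columns and their interaction.

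The double knockout libraries moved a few collagens relative to sgArid1a cultures. The 2 comparisons share the sgArid1a libraries, which also serve the comparison with sgScr. In the libraries labelled Cgas double knockout limma called 4 of 17 higher (12.2% of all genes) and 2 lower (16.5%). Col1a2 was at 8.10 and 7.84 there, against 7.05 and 7.21 in sgArid1a cultures (0.84, SE 0.132, adjusted p 0.00037). Col10a1 was at 5.09 and 4.99 against 4.26 and 4.28 (0.77, adjusted p 0.00017), and Col9a1 at 5.42 and 5.52 against 5.96 and 6.06 (-0.54, adjusted p 0.0017). These 3 calls held with any library left out. Col15a1 (0.64) lost its call without Cgas replicate 1 (0.44, adjusted p 0.082). Col4a4 (0.32) lost it without sgArid1a replicate 1 (0.33), sgArid1a replicate 2 (0.30) or Cgas replicate 1 (0.27), and Col4a1 (-0.37, adjusted p 0.042) without any 1 of the 4 libraries (-0.32 to -0.42). Col11a2 was at 8.10 and 7.64 against 8.11 and 8.01, with overlapping groups, and was not called (-0.19, adjusted p 0.52). Col2a1 (0.19), Col4a2 (-0.26) and Col5a1 (0.11) were not called either.

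In the libraries labelled Sting double knockout limma called 3 collagens higher (13.9% of all genes) and 3 lower (17.9%). With each library centred on its median, the split of all calls was 2145 higher and 1767 lower, against 1611 and 2077 without centring. Col4a1 was at 8.90 and 9.04 in Sting libraries, against 9.48 and 9.50 in sgArid1a cultures (-0.52, adjusted p 0.0072), and Col10a1 at 4.61 and 4.94 against 4.26 and 4.28 (0.51, adjusted p 0.0039). Col9a1 was at 5.55 and 5.66 against 5.96 and 6.06 (-0.41, adjusted p 0.01). All Sting libraries lay on one side of all sgArid1a libraries for these genes. Col11a2 was at 7.28 and 7.67 against 8.11 and 8.01 (-0.58, adjusted p 0.044), and Col15a1 (0.50) and Col4a4 (0.31) were higher. None of the 6 calls held with every library left out in turn. Col11a2 (-0.39 to -0.78), Col15a1 (0.45 to 0.55) and Col4a4 (0.29 to 0.32) lost theirs whichever library was left out. Col4a1 lost its call without sgArid1a replicate 2 (-0.51) or the first Sting library (-0.45), Col9a1 without the same libraries (-0.36 and -0.35), and Col10a1 without the second Sting library (0.34). Col1a2 was not called (0.28, adjusted p 0.12), nor were Col2a1 (-0.20), Col4a2 (-0.35) and Col5a1 (0.03).

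Blocking the interferon receptor or JAK kinases left no collagen past the threshold in sgArid1a cultures. With anti-IFNAR limma called 0 of 14 tested collagens, 0 had an unadjusted p under 0.05, and log2 fold changes ran from -0.12 to 0.10. Of all genes tested 0% were called higher and 0.0171% lower. Col11a2 was at 8.18 and 8.28 with the antibody, against 8.18 and 8.11 without it. The libraries without the antibody are the untreated sgArid1a libraries above, normalised here with the antibody-treated ones. With ruxolitinib limma called 0 of 19, where 0.0255% of all genes were called higher and 0.195% lower. At an unadjusted p under 0.05 there were 5, all lower (Col4a1, Col4a2, Col5a1, Col5a3, Col10a1), with a smallest adjusted p of 0.47 over the tested collagens. The authors' deposited table called Col4a2 (-0.447) and Col5a3 (-0.446) of these lower. Col11a2 was at 7.53 and 7.69 with ruxolitinib, against 7.66 and 8.05 with DMSO, and the groups overlapped (-0.25, adjusted p 0.52). Col1a2, at 7.19 and 7.21 against 7.32 and 7.29, had a log2 fold change of -0.10 and Col2a1 one of -0.06.

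**Figure D4:**
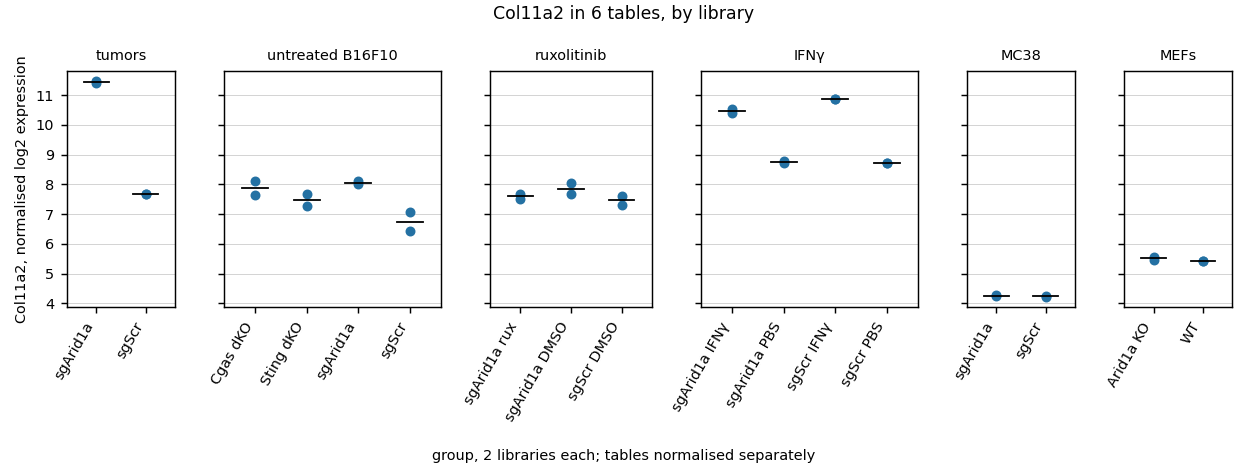
Col11a2 normalised log2 expression (vertical axis) by library in 6 of the log2 tables (panels; groups on the horizontal axis, 2 libraries each, with a line at the mean; tables normalised separately). The sgArid1a tumors lie at 11.40 and 11.46 against 7.69 for sgScr tumors, and both IFNγ groups lie above their PBS groups.

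Most tested collagens were lower with BD98 in sgScramble B16F10. Of 24 collagens that passed edgeR's filter, edgeR called 2 higher, where 24.5% of all genes tested were called higher, and 13 lower, where 25.4% were. The median log2 fold change was -1.16 over the collagens and 0.00528 over all 12843 genes. By class, 4 of 5 fibrillar, 1 of 5 basement membrane, 5 of 7 cartilage and 3 of 7 other genes were lower, and 1 basement membrane and 1 cartilage gene were higher. BD98 libraries held 16.1 M and 17.5 M reads and DMSO libraries 19.2 M and 30.3 M reads, and values are also given as CPM, the counts scaled to library size.

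Col1a2 had 2 and 0 counts with BD98, against 615 and 380 with DMSO. The depth-scaled ratio of BD98 to DMSO was 0.00265, with a 95% exact counting interval of 0.000321 to 0.0096 that covers counting error only, and edgeR's adjusted p was 8.8e-17. Both BD98 libraries were thus at the edge of detection where both DMSO libraries were well covered, and adding anti-IFNAR left 1 and 3 counts. Col16a1, which links fibrils to cells, had 3 and 21 counts with BD98 against 512 and 323 with DMSO (-4.71, SE 0.298). Col14a1, a fibril-associated collagen, had 2 and 3 counts against 50 and 26 (-3.46, SE 0.58). Of the cartilage chains, Col9a1 had 39 and 24 counts against 302 and 184 (-2.54, SE 0.232), and Col9a2 3 and 11 against 70 and 50 (-2.70, SE 0.46). Col11a2 had 44 and 55 counts with BD98 (3.31 and 3.83 CPM) against 268 and 165 with DMSO (12.01 and 11.63 CPM). It was lower by -1.73 (SE 0.202, adjusted p 7e-08) with no overlap between groups. Col20a1 changed by -2.14, Col5a1 by -1.48, Col27a1 by -1.41, Col5a3 by -1.38, Col10a1 by -1.24 and Col15a1 by -0.55. Col2a1 had 8 and 28 counts with BD98 against 54 and 57 with DMSO (-1.27, adjusted p 0.011), and lost its call without DMSO replicate 2 (-0.90) or BD98 replicate 1 (-0.67).

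Col11a1 and Col4a5 rose. Col11a1 had 68 and 58 counts with BD98 against 24 and 6 with DMSO (2.48, SE 0.331, adjusted p 6.4e-07), the opposite direction to its partner Col11a2. Col4a5 had 84.8 and 90.0 CPM with BD98, against 47.4 and 52.1 with DMSO (0.82, SE 0.0835). The abundant Col4a1 (72.9 and 66 CPM with BD98, 74.5 and 80.3 with DMSO) and Col4a2 (37.2 and 33.2 CPM, against 42.0 and 39.6) were not called (-0.15 and -0.22), although both were without BD98 replicate 1 (-0.23 and -0.30). Col1a1 had 33 and 45 counts with BD98 against 28 and 32 with DMSO (0.74, adjusted p 0.078), and was called without DMSO replicate 2 (1.16, adjusted p 0.031). Col3a1, Col5a2, Col6a1, Col6a2 and Col6a3 had between 0 and 4 counts in every library of this experiment.

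Of 23 tested synthesis genes 8 were higher and 5 lower with BD98, with P3h2, a prolyl hydroxylase of basement membrane collagen, at -2.79 and Fkbp10, a collagen chaperone, at 0.80. Of 12 tested breakdown and receptor genes 3 were higher and 2 lower, among them Timp1 (1.50) and Mrc2, an endocytic collagen receptor (1.11). Of 9 tested cartilage matrix genes 5 were lower and none higher, including Sox9 (-2.34) and Matn3 (-1.92). All 7 melanoma markers were lower, with a summed log2 CPM of 13.37 to 13.47 with BD98 and 15.10 to 15.12 with DMSO, and the part of this shift in the collagen results was not tested. Adding anti-IFNAR to BD98 gave no called collagen among 24, by edgeR or DESeq2, with 2 and 1 at an unadjusted p under 0.05, where 0.109% of all genes were called higher and 1.39% lower. Log2 fold changes ran from -0.95 to 0.63, and this comparison shares the BD98 libraries with the one against DMSO.

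**Figure D5:**
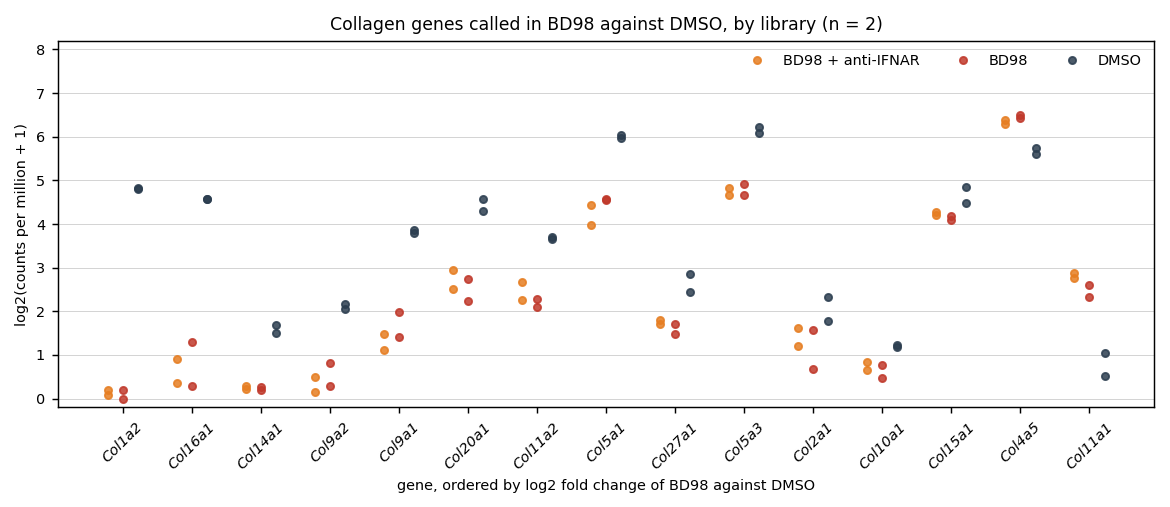
Log2(CPM + 1) (vertical axis) by library for the collagen genes called between BD98 and DMSO (horizontal axis, ordered by log2 fold change), with BD98, BD98 plus anti-IFNAR and DMSO in different colours (n = 2 each). Col1a2 lies near 0 in BD98 libraries, Col16a1 is low but uneven between them, and both are far higher in DMSO libraries. Col11a1 and Col4a5 at the other end are higher with BD98.

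In MC38 collagens were called in both directions. Limma called 8 of 21 tested collagens higher, where 8.33% of all genes were called higher, and 7 lower, where 12.9% were. With each library centred on its median the split of all calls was 1334 higher and 1214 lower, against 959 and 1484 without. Col7a1 was at 8.76 and 8.80 in sgArid1a MC38, against 9.46 and 9.57 in sgScr MC38 (-0.74, SE 0.0332, adjusted p 9.4e-18). Col6a3 was at 10.45 and 10.39 against 11.02 and 10.93 (-0.55, SE 0.0326), and Col5a1 at 11.72 and 11.72 against 11.996 and 12.040 (-0.30, SE 0.0286). The groups stood well apart for all 3. In the authors' deposited table the log2 fold changes were larger, at -1.645 for Col7a1, -0.804 for Col6a3 and -0.366 for Col5a1. The other type VI chains did not follow Col6a3, with Col6a1 not called (0.02) and Col6a2 at 10.15 and 10.14 in sgArid1a MC38 against 10.11 and 9.97 in sgScr MC38 (0.11, adjusted p 0.03).

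Among fibrillar chains Col3a1 was at 9.34 and 9.39 in sgArid1a MC38, against 9.16 and 9.07 in sgScr MC38 (0.25, SE 0.0322, adjusted p 3e-07), and Col1a2 at 7.05 and 7.04 against 6.90 and 6.94 (0.13). The authors' deposited table gives 0.537 for Col3a1, 0.814 for Col1a2, 1.03 for Col11a1 and 0.711 for Col27a1. Col1a1 was not called (0.02, adjusted p 0.23), and Col2a1 did not pass the filter. Col5a2 was higher by 0.04. Col4a5 (0.19), Col11a1 (0.16), Col27a1 (0.12) and Col4a6 (0.08) were higher, whereas Col16a1 (-0.15), Col4a2 (-0.15), Col4a1 (-0.14) and Col12a1 (-0.09) were lower. Without sgArid1a replicate 1 the calls of Col4a1 (-0.12), Col4a2 (-0.12) and Col16a1 (-0.13) were lost. Col6a2 lost its call without sgScr replicate 2 (0.03), sgArid1a replicate 1 (0.10) or sgArid1a replicate 2 (0.11), and Col5a2 without sgScr replicate 2 (0.03) or sgArid1a replicate 2 (0.04). Col11a2, at 4.24 and 4.28 in sgArid1a MC38 against 4.23 and 4.24 in sgScr MC38, was not called (0.02), and was without sgArid1a replicate 1 (0.04, adjusted p 0.014). Of 24 tested synthesis genes 3 were higher and 5 lower, among them Loxl4 (-0.32), Adamts14, which trims procollagen (-0.28), and Pcolce (-0.25).

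Several collagens had more mRNA in Arid1a -/- MEFs than in WT MEFs. The Arid1a -/- MEFs had been given tamoxifen and the WT MEFs ethanol, so genotype and agent cannot be told apart. Without a replicate block, limma called 8 of 26 tested collagens higher, where 4.69% of all genes tested were called higher, and 1 lower, where 5.01% were. With each library centred on its median the split of all calls was 646 higher and 440 lower, against 572 and 611 without. Col3a1 was at 11.22 and 11.24 in Arid1a -/- MEFs, against 10.47 and 10.52 in WT MEFs (0.74, SE 0.0566, adjusted p 1.4e-05). Col2a1 was at 12.45 and 12.55 against 11.74 and 11.92 (0.67, SE 0.0712), and Col10a1 at 8.71 and 8.61 against 8.21 and 8.22 (0.45, SE 0.0543). Every Arid1a -/- library lay above every WT library for these genes. Col8a2 (0.40), Col5a3 (0.30), Col6a3 (0.29), Col6a2 (0.26) and Col14a1 (0.11) were also higher. Col5a3 lost its call without WT replicate 1 (0.22), and Col6a2 and Col6a3 lost theirs without WT replicate 1 (0.19 and 0.20) or Arid1a -/- replicate 2 (0.19 and 0.23). Col8a1 was at 11.36 and 11.35 in Arid1a -/- MEFs, against 11.68 and 11.68 in WT MEFs (-0.32, SE 0.0559).

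The leading chains of MEFs were not called in this fit, which does not pair libraries by replicate number. Deviations of same-numbered MEF libraries correlated at 0.686, and the labels do not say what those libraries share. With a replicate block, 8 named MEF values not called here were called, so these calls depend on the pairing. More collagens were called lower with the block than the 1 called lower without it. Col1a1 was at 14.97 and 15.18 in Arid1a -/- MEFs, against 15.03 and 15.27 in WT MEFs (-0.07). The log2 fold changes of Col1a2 (-0.08), Col5a2 (-0.11), Col5a1 (0.03), Col4a1 (-0.15), Col4a2 (-0.16), Col6a1 (0.17) and Col11a1 (-0.17) did not pass the test. Col11a2 was at 5.47 and 5.57 against 5.42 and 5.42 (0.10, adjusted p 0.092), and was called without Arid1a -/- replicate 1 (0.15, adjusted p 0.0038). Of 28 tested synthesis genes none was higher and 7 were lower, among them Tll1, a procollagen protease (-0.52), Pcolce2 (-0.44) and Serpinh1, the collagen chaperone HSP47 (-0.43). Of 7 tested cartilage matrix genes Acan, the aggregating proteoglycan of cartilage (0.31), and Comp (0.11) were higher. Of 5 tested fibroblast markers 3 were higher, and the list had no marker at 0. Their summed level was 13.33 to 13.35 in Arid1a -/- MEFs and 13.11 to 13.13 in WT MEFs, and their part in the result was not tested.

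IFNγ raised Col11a2 in B16F10 under both guide labels. In libraries labelled sgScr it was at 10.86 and 10.86 with IFNγ, against 8.73 and 8.72 with PBS, a change of 2.13 (SE 0.0499, adjusted p 9.1e-15). In libraries labelled sgArid1a it was at 10.52 and 10.40 with IFNγ, against 8.74 and 8.78 with PBS, a change of 1.70 (SE 0.0499, adjusted p 1.3e-13). All 4 IFNγ libraries lay above all 4 PBS libraries. The response was smaller under the sgArid1a label by -0.43 (SE 0.0706, interaction adjusted p 0.0039), the only one of 22 collagens whose interaction was called, where 0.696% of all genes had a higher and 0.186% a lower interaction. With IFNγ Col11a2 ranked 1 of the collagens per kb of exon, at 7.766 ± 0.0884 in sgArid1a-labelled and 8.166 ± 0.00283 in sgScr-labelled libraries. With PBS it ranked 9, at 6.062 ± 0.0297 and 6.034 ± 0.00707 (SD, n = 2). In sgArid1a-labelled IFNγ libraries it did not differ from Col4a1 (7.712 ± 0.0148) beyond the spread.

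Across the 22 tested collagens limma called 4 higher (20.9% of all genes) and 9 lower (21.3%) in libraries labelled sgArid1a, and 5 higher (15.7%) and 5 lower (19.3%) in those labelled sgScr. The 2 comparisons share no library. Of the collagens called higher, 4 were common to both (100% of the sgArid1a list and 80% of the sgScr list), and of those called lower 5 were (55.6% and 100%). The overlap over all genes tested was not counted, so these shares cannot be read as particular to collagens. Col15a1, a basement membrane collagen, was at 9.94 and 9.82 with IFNγ against 9.11 and 9.27 with PBS in sgArid1a-labelled libraries (0.69) and changed by 0.58 in sgScr-labelled ones. Col5a1 changed by 0.24 and 0.29, and Col5a3 by 0.14 and 0.26. Col16a1 was at 8.94 and 8.91 with IFNγ against 9.58 and 9.59 with PBS in sgArid1a-labelled libraries (-0.66) and changed by -0.54 in sgScr-labelled ones. Col4a4 changed by -0.47 under both labels, Col27a1 by -0.24 and -0.23, Col10a1 by -0.17 and -0.11, and Col4a2 by -0.16 and -0.17. Col4a1 was called in sgScr-labelled libraries (0.23) and not in sgArid1a-labelled ones (0.07), and its interaction was not called (adjusted p 0.35). Col20a1 (-0.19), Col4a5 (-0.13), Col7a1 (-0.10) and Col23a1 (-0.08) were called lower in sgArid1a-labelled libraries. Col1a2 (-0.02 and -0.01), Col2a1 (0.08 and 0.07) and Col1a1 (-0.08 and 0.03) were not called, but Col1a1 was in sgArid1a-labelled cells without their IFNγ replicate 1 (-0.12).

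Some of the smaller IFNγ calls rested on single libraries. In sgArid1a-labelled libraries Col5a3 lost its call without PBS replicate 1 (0.10), IFNγ replicate 1 (0.12) or IFNγ replicate 2 (0.15), and Col4a5 without the same 3 (-0.08, -0.16 and -0.10). Col4a2 lost it without PBS replicate 1 (-0.13) or IFNγ replicate 2 (-0.15), Col7a1 without PBS replicate 2 (-0.07) or IFNγ replicate 2 (-0.08), and Col20a1 without PBS replicate 1 (-0.19), PBS replicate 2 (-0.18) or IFNγ replicate 2 (-0.14). In sgScr-labelled libraries Col4a2 lost its call without PBS replicate 1 (-0.16), and Col10a1 without PBS replicate 1 (-0.13), PBS replicate 2 (-0.09) or IFNγ replicate 1 (-0.07).

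Genes of collagen synthesis were mostly lower with IFNγ. Of 22 tested, 1 was higher and 14 lower in sgArid1a-labelled libraries, and 4 were higher and 13 lower in sgScr-labelled ones. In the sgScr-labelled libraries Bmp1, the procollagen C-proteinase, changed by -0.70, Fkbp10 by -0.56, Adamts14 by -0.55 and Pcolce, its enhancer protein, by -0.30. Of the cartilage list Trpv4 changed by 0.93 and Sox9 by -0.43. Of 4 tested fibroblast markers 1 was higher and 3 were lower under both labels, and none of the 10 was at 0. Their summed level was 11.71 to 11.73 with IFNγ and 12.93 to 12.96 with PBS in sgArid1a-labelled libraries, and 11.80 to 11.85 with IFNγ and 12.91 to 12.92 with PBS in sgScr-labelled ones, and their part in the result was not tested.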

How the data were processed

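RNA-seq libraries were made with TruSeq Stranded mRNA kits, per the labels' protocols; STAR 2.5.3a, HOMER, edgeR, DESeq2 and the GRCm38 (mm10) build are named in the submitters' processing notes, and the strand setting of the counting is not given in the sources used here. In 7 tables the authors deposited normalized log2 values per gene, and in the BD98 table they deposited raw read counts per gene, over exons by HOMER per the file headers. The fold changes and adjusted p-values of the authors' deposited tables came from edgeR or DESeq2, per the file headers. The 4 total RNA repeat libraries were not used here, and 10 columns of values that match no sample used here were left out.

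Log2 values were tested with limma 3.58.1 (trend on, genes with a mean of at least 4, all groups of a table fitted together) and counts with edgeR 4.0.16 quasi-likelihood tests (TMM, filterByExpr) in R 4.3.3, with DESeq2 1.42.0 as an alternative, and p-values were adjusted over all genes tested by the Benjamini-Hochberg method. Scripts were tested on simulated data. Members and gene lists were chosen with earlier results of these data known. Genes are named by a fixed rule: the main chains of types I to VI and XI in each comparison, the up to 12 called collagens with the largest change, and up to 4 genes of each list by p. No other gene's exons covered over 10% of any collagen gene's exons. Per-kb levels subtract log2 of the exon length, and CPM values carry a pseudocount of 1 where logged.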

Additional observations from a re-analysis of the deposited data

Results flagged for a closer look

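The IFNγ response of Col11a2 differed between the guide labels by -0.428 on the log2 scale (interaction adjusted p 0.0039, limma), with 10.52 and 10.40 against 8.74 and 8.78 in sgArid1a-labelled libraries and 10.86 and 10.86 against 8.73 and 8.72 in sgScr-labelled ones. Arid1a mRNA did not follow the labels in those libraries.

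For 9 collagens the called change in sgArid1a or Arid1a -/- samples against their controls had opposite signs in 2 experiments. How many of all genes did so was not counted. In tumors 26.0% of all genes tested were called higher and 28.1% lower. The experiments of a pair were normalized separately, and the difference between them was not tested. In B16F10 tumors against MC38, Col4a1 changed by 0.321 in tumors and -0.14 in MC38, Col4a2 by 0.265 and -0.151, Col6a3 by 0.335 and -0.553, and Col7a1 by 0.314 and -0.738. Col5a2 changed by -0.281 in tumors and 0.0405 in MC38. Col3a1 changed by -0.244 in tumors and 0.741 in MEFs, and Col8a1 by 0.562 in tumors and -0.325 in MEFs. Col1a2 changed by -0.538 in untreated B16F10 cultures and 0.128 in MC38. Col9a1 changed by 2.11 in tumors and -0.187 in the PBS cultures labelled sgArid1a, where Arid1a mRNA did not follow the guides. Some of these calls were lost with 1 library left out. They were those of Col3a1 and Col5a2 in tumors, Col4a1, Col4a2 and Col5a2 in MC38, Col1a2 in untreated cultures and Col9a1 in PBS cultures.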

How the results depend on the processing

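Of 167 named values 111 kept their call, or their lack of one, in every alternative, and 59 of 94 called ones kept the call. None of 1458 refits reversed the direction of a value that was called before or after refitting. Changes of sign in values called in neither fit were not counted. Without the filter on low values, 3 tumor collagens were called lower, 1 in Cgas double knockouts, 0 lower in PBS cultures and 0 higher in DMSO cultures. Centring libraries on their medians gave 1 lower in Cgas double knockouts and 2 in PBS cultures, where the split of all calls was 252 higher and 80 lower, against 293 and 43. Without limma's trend 0 were higher in DMSO cultures, 5 in MC38 and 4 in MEFs. Fitting only the groups compared gave 2 higher and 3 lower in DMSO cultures and 2 lower in PBS cultures. The cause was not tested.

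Leaving out 1 library at a time gave 19 to 21 higher and 3 to 5 lower in tumors, 1 to 4 and 0 to 1 in untreated cultures, 2 to 4 and 1 to 1 in Cgas and 0 to 1 and 0 to 2 in Sting double knockouts, 0 to 2 and 0 to 4 in DMSO cultures, 2 to 3 and 11 to 14 with BD98, 0 to 0 and 0 to 1 with BD98 plus anti-IFNAR, 5 to 7 and 3 to 7 in MC38, 5 to 9 and 1 to 1 in MEFs, and 0 to 0 and 0 to 0 in PBS cultures. With IFNγ it gave 3 to 4 higher and 4 to 9 lower in sgArid1a-labelled and 5 to 5 and 3 to 5 in sgScr-labelled libraries. A group left with 1 library was assumed to vary like the others.

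Replicate numbers are shared by number only, with 2 pairs a comparison, and the correlation of same-numbered deviations ran from -0.51 in tumors to 0.686 in MEFs. With a replicate block 3 were called lower in tumors, 0 in untreated cultures, 1 in Cgas double knockouts and 11 in MEFs, where 1 was called lower without it. For the Sting double knockouts no paired analysis was possible because their columns carry no replicate number. With 2 libraries a group, small changes are not separable from spread, and depth limits the BD98 genes with few counts.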

Other observations

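Col24a1, a fibrillar collagen, lay below the filter in cultured B16F10, and the authors' deposited table gave it a log2 fold change of 5.94 (adjusted p 0.0058) in untreated and 5.66 (adjusted p 0.034) in DMSO cultures of sgArid1a against sgScr cells. The deposited log2 levels there were low and close together. Their means were 2.523 in sgArid1a and 2.371 in sgScr untreated cultures normalised with the double knockouts. In DMSO cultures they were 2.054 and 2.003. For tumors the authors' deposited log2 fold change was 0.30 and was not called.

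Of the 3 genes on each side of Col11a2 on chromosome 17, 4 were tested in each comparison, and H2-Oa also with BD98. With IFNγ in sgScr-labelled libraries 3 of 4 tested neighbours were called higher, where 15.7% of all genes were. The 4 ran from 0.05 to 0.27 (Rxrb), beside 2.13 for Col11a2. In sgArid1a-labelled libraries 1 of 4 was higher, where 20.9% of all genes were. Those 4 ran from -0.00766 to 0.17, beside 1.70 for Col11a2. In DMSO cultures 0 of 4 were called higher and 0 lower. In tumors 2 of 4 were called higher, where 26.0% of all genes were. The 4 ran from -0.10 to 0.76, led by Slc39a7. In untreated sgArid1a cultures 1 of 4 was higher, Slc39a7 by 0.60, where 5.84% of all genes were. With BD98 2 of 5 were higher, where 24.5% of all genes were, and 1 lower, where 25.4% were. Slc39a7 was higher by 0.77 and H2-Ke6 by 0.58, and Rxrb was lower by -0.41. H2-Oa was at 1.46 (SE 0.708, not called), beside -1.73 for Col11a2.

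Type IV chains are encoded in head-to-head pairs. Starts of Col4a1 and Col4a2 lie 21 bases apart on opposite strands of chromosome 8, those of Col4a3 and Col4a4 72 bases apart on chromosome 1, and those of Col4a5 and Col4a6 1343 bases apart on chromosome X. In tumors Col4a1 and Col4a2 were both higher (0.32 and 0.27), while with IFNγ in sgScr-labelled libraries Col4a1 was higher (0.23) and Col4a2 lower (-0.17).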
